A study of Mus musculus with 6 samples.

Results

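The collapsin response mediator proteins (CRMPs) are encoded in the mouse by 5 genes, *Crmp1*, *Dpysl2*, *Dpysl3*, *Dpysl4* and *Dpysl5*, and all 5 were found by symbol among the 25239 gene symbols counted in hippocampal RNA. The family was chosen by name to ask whether a fall of *Dpysl3* in Ube3a m-/p+ mice was shared by its relatives, so the fall of *Dpysl3* chose the family and is given as a description, without a test. All 5 genes passed the filter on low counts, together with 14440 others.

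CRMPs are cytosolic phosphoproteins of neurons that were found through the collapse of growth cones by the guidance cue Sema3A. They resemble dihydropyrimidinase, an enzyme of pyrimidine breakdown, in sequence, but act by binding tubulin and other partners of the cytoskeleton, in assemblies that can mix family members. Phosphorylation by kinases such as Cdk5 and Gsk3 releases them from tubulin. They are most abundant while axons and dendrites grow, and some members remain abundant in the adult brain.

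Hippocampal RNA of male C57BL/6 mice aged 6 to 8 weeks, by the study's methods, was sequenced as 1 library per mouse. The groups were 3 WT mice, with both copies of *Ube3a* intact (Ube3a m+/p+), and 3 mice of the genotype Ube3a m-/p+. Ube3a m-/p+ mice lack a functional maternal copy of *Ube3a*, an imprinted ubiquitin ligase gene that most neurons express from the maternal copy, and are a model of Angelman syndrome. The paternal copy is present in both groups, and in a whole tissue fewer cells of a type and less RNA per cell cannot be told apart. Reads assigned to genes numbered 7293272 to 8675252 per WT library and 8871052 to 11314409 per Ube3a m-/p+ library.

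The genotype and tissue of the libraries were checked first. *Ube3a* was at 104, 141 and 151 CPM (counts scaled so that the gene counts of each library have the same sum) in WT mice 1, 2 and 3, and at 96.8, 82.9 and 80.6 CPM in Ube3a m-/p+ mice 1, 2 and 3. All Ube3a m-/p+ mice lay below all WT mice (log2 fold change -0.58, standard error 0.12, adjusted p = 0.0363, edgeR). However, *Ube3a* was not called (fold change over 1.2 with an adjusted p under 0.05) after correction for transcript length and GC content (-0.20, adjusted p = 0.240, edgeR). Nor was it called without WT mouse 2 or 3 or Ube3a m-/p+ mouse 2 or 3 (-0.54 to -0.48), settings in which 0 to 2 of all genes were called. *Ube3a* shares 1803 exon bases with *Snhg14*, a transcript of the opposite strand with 3194 counts in the 6 libraries, so without a known strand setting their reads cannot be told apart there. The 8 excitatory neuron markers listed for the hippocampus were detected and summed to 7237 to 8209 CPM in WT mice and to 7835 to 8664 CPM in Ube3a m-/p+ mice. The 5 choroid plexus markers summed to between 98.9 and 2163 CPM in WT mice and between 105 and 2251 CPM in Ube3a m-/p+ mice, so carry-over of that tissue differed among libraries of both groups. Deviations from the mean of the 6 libraries followed the GC content of transcripts with a Spearman's rank correlation, across genes, of 0.05 and 0.06 in the mice numbered 1, of -0.51 and -0.57 in WT mice 2 and 3 and of 0.53 and 0.53 in Ube3a m-/p+ mice 2 and 3. Genotype and this gradient cannot be told apart in mice 2 and 3, and the members are therefore also given after both GC content and transcript length were corrected for and without the mice numbered 1.

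The family members are paralogs, so their transcripts were compared first, to see whether reads of one gene could have been counted on another. In the principal coding transcripts of GENCODE M21 (GRCm38), the coding sequences held 572 codons in *Crmp1*, *Dpysl2* and *Dpysl4*, 570 in *Dpysl3* and 564 in *Dpysl5*. Over aligned bases, *Dpysl3* was identical to *Dpysl2* at 73.7%, to *Crmp1* at 71.2%, to *Dpysl4* at 68.9% and to *Dpysl5* at 57.5%. *Dpysl5* was the most distant member, with 57.5% to 58.5% identity to the other 4. The longest identical run between any pair was 29 bases, between *Dpysl4* and *Crmp1* and between *Dpysl4* and *Dpysl2*. None of the 6602 distinct stretches of 50 bases in the annotated *Dpysl3* transcripts occurred on either strand in a transcript of any other gene, and the same count was 0 for each of the other 4 members. For *Crmp1*, *Dpysl2*, *Dpysl4* and *Dpysl5*, the coding window of 60 bases inside 1 exon with the most bases the same in all 4 is shown. It is in coding orientation from 5′ to 3′ and in frame. The choice was made over the 4 genes together, so a given pair can be more alike elsewhere. Capitals mark the bases that differ from *Dpysl2*, and 41 of the 60 bases were the same in all 4.
Dpysl2 (GRCm38 chr14:66813231-66813290, minus strand, exon 11): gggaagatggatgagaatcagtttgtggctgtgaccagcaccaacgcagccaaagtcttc
Crmp1 (GRCm38 chr5:37284034-37284093, plus strand, exon 11): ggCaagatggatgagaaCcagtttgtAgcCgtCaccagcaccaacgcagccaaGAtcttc
Dpysl4 (GRCm38 chr7:139097828-139097887, plus strand, exon 11): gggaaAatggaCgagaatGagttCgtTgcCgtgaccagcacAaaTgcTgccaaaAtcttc
Dpysl5 (GRCm38 chr5:30791498-30791557, plus strand, exon 10): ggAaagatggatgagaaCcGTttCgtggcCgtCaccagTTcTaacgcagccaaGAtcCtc
In this window *Crmp1* differed from *Dpysl2* at 7 bases, *Dpysl4* at 10 and *Dpysl5* at 13. In GENCODE M21 no exon of another gene overlapped an exon of a member on either strand, so no such overlap could add reads to the 5. The annotation and the strand setting of the counting are not stated, and their other effects on the counts were not tested. The counts are per gene symbol and do not separate isoforms.

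*Dpysl3* (CRMP4), on chromosome 18 of GRCm38 (43320984 to 43438286), encodes a CRMP known for binding F-actin as well as microtubules and for its high level in young neurons. WT mice 1, 2 and 3 gave 620, 638 and 526 counts, or 73.0, 73.5 and 72.1 CPM. Ube3a m-/p+ mice 1, 2 and 3 gave 457, 589 and 536 counts, or 51.5, 52.1 and 50.9 CPM. The groups did not overlap, where 14.2% of all genes tested were lower and 10.8% higher without overlap. The mice of a group lay within 1.42 CPM of each other in WT mice and within 1.11 CPM in Ube3a m-/p+ mice. The means of 72.9 ± 0.720 CPM for WT and 51.5 ± 0.555 CPM for Ube3a m-/p+ mice (SD, n = 3 each) correspond to a fall of 29.3%, or -0.48 on the log2 scale of the fit (standard error 0.09). The spread among mice was smaller than the SD that counting alone gives at these depths, 3.00 CPM in WT mice and 2.25 CPM in Ube3a m-/p+ mice. As the gene was chosen for this fall, its values stand without a p or a call and are no evidence about the family.

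*Dpysl2* (CRMP2) is the member best known for binding tubulin heterodimers and promoting axon growth, and lies on chromosome 14 (66802864 to 66868688). It stood at 177, 188 and 169 CPM in WT mice 1, 2 and 3 and at 138, 162 and 180.4 CPM in Ube3a m-/p+ mice 1, 2 and 3. The groups overlapped, with Ube3a m-/p+ mouse 3 above 2 of the WT mice and Ube3a m-/p+ mouse 1 below all others. The log2 fold change was -0.13 (95% interval -0.35 to 0.08, adjusted p = 0.434, edgeR), and the exact permutation test over mice gave a two-sided p of 0.3. Without Ube3a m-/p+ mouse 1 the log2 fold change was -0.02, and without Ube3a m-/p+ mouse 3 it was -0.23 (adjusted p = 0.891 and 0.266, edgeR).

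*Crmp1*, on chromosome 5 (37241940 to 37292133), encodes the member that acts in Sema3A signalling and in dendritic spine formation. It had the highest counts of the family, with 287, 306 and 311 CPM in WT mice 1, 2 and 3 and 290.0, 274 and 307 CPM in Ube3a m-/p+ mice 1, 2 and 3. The groups overlapped over most of their range. The log2 fold change was -0.04 (95% interval -0.21 to 0.14, adjusted p = 0.816, edgeR), with a two-sided exact permutation p of 0.5.

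*Dpysl4* (CRMP3), on chromosome 7 (139086001 to 139102704), encodes a member linked to dendrite growth in hippocampal neurons. It stood at 56.0, 53.3 and 51.3 CPM in WT mice 1, 2 and 3 and at 52.1, 61.3 and 59.2 CPM in Ube3a m-/p+ mice 1, 2 and 3. Ube3a m-/p+ mice 2 and 3 lay above every WT mouse, and Ube3a m-/p+ mouse 1 was inside the WT range. The log2 fold change was 0.12 (95% interval -0.09 to 0.33, adjusted p = 0.455, edgeR), with a two-sided exact permutation p of 0.3.

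*Dpysl5* (CRMP5), on chromosome 5 (30711564 to 30799375), encodes the most divergent member, which is abundant in newly formed neurons and counteracts the growth promoted by CRMP2. It stood at 43.1, 37.3 and 29.3 CPM in WT mice 1, 2 and 3 and at 36.9, 41.3 and 41.6 CPM in Ube3a m-/p+ mice 1, 2 and 3. WT mouse 1 had the highest and WT mouse 3 the lowest value of all 6 mice, so that the groups overlapped. The log2 fold change was 0.14 (95% interval -0.13 to 0.42, adjusted p = 0.533, edgeR), with a two-sided exact permutation p of 0.7. Without WT mouse 3 it was 0.00 and without WT mouse 1 it was 0.28 (adjusted p = 0.994 and 0.138, edgeR).

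**Figure D1:**
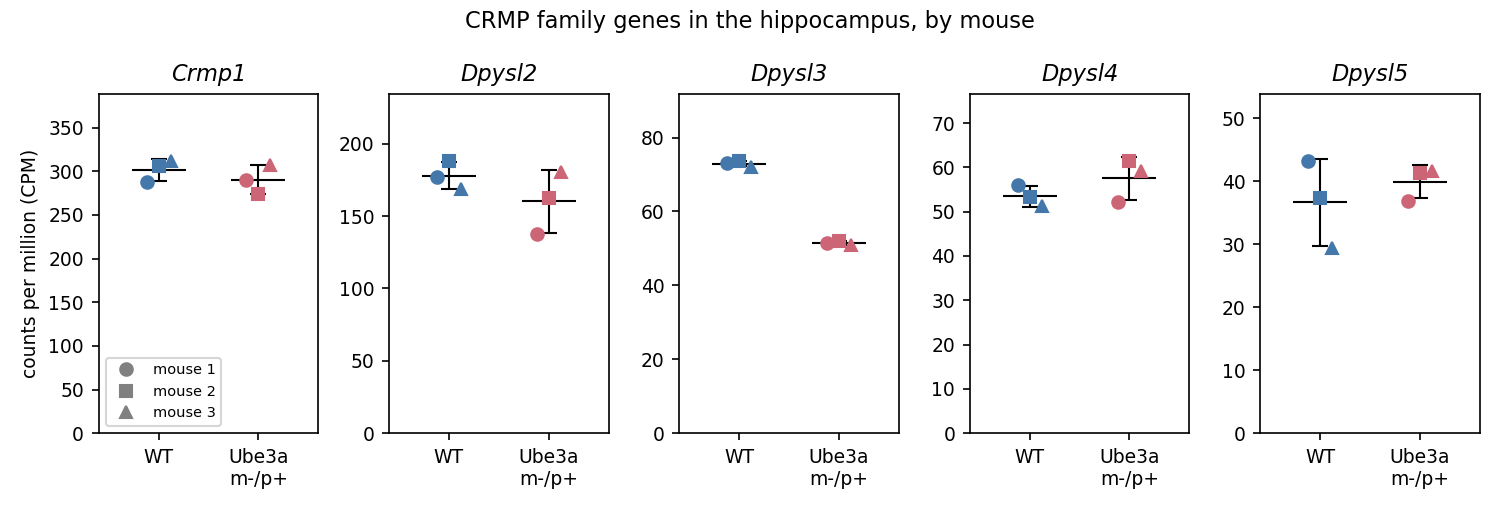
CPM of the 5 CRMP family genes in each mouse, with a panel and an axis from 0 for each gene, symbols for the mouse number, and the mean and SD of each group (n = 3) in black. *Dpysl3* separates the groups with 72.1 to 73.5 CPM in WT mice and 50.9 to 52.1 CPM in Ube3a m-/p+ mice, while the groups overlap in the other 4 genes. Of all genes tested, 14.2% were lower and 10.8% higher without overlap.

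None of the 4 relatives was called, where 2.01% of all genes tested were, 0.99% lower and 1.02% higher. Their log2 fold changes ran from -0.13 to 0.14, with a median of 0.04, beside a median of 0.00 over all genes tested. Log2 fold changes of *Crmp1* and *Dpysl2* were below 0 and those of *Dpysl4* and *Dpysl5* above 0, where 49.7% of all genes tested were below 0. The 95% intervals of *Crmp1*, *Dpysl4* and *Dpysl5* reached down to -0.21, -0.09 and -0.13, and that of *Dpysl2* to -0.35. The fitted value of *Dpysl3* had an interval of -0.67 to -0.30, which the interval of *Dpysl2* overlapped. The difference between *Dpysl3* and its relatives was not tested, since its value chose the family. With 3 mice against 3, the exact permutation test cannot give a p below 0.1.

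Levels were compared between members per kilobase of annotated exons, since longer transcripts give more counts. In WT mice the order was *Crmp1* at 42.8 ± 1.77 CPM per kilobase (SD, n = 3), *Dpysl2* at 39.4 ± 2.08, *Dpysl3* at 11.0 ± 0.109, *Dpysl4* at 8.94 ± 0.392 and *Dpysl5* at 4.96 ± 0.937. *Crmp1* and *Dpysl2* overlapped in their ranges, and each later step in the order separated all WT mice. In Ube3a m-/p+ mice *Dpysl3* stood at 7.79 ± 0.0839 CPM per kilobase and *Dpysl4* at 9.62 ± 0.811 (SD, n = 3), so the places of these members were exchanged in all 3 mice. *Crmp1* at 41.2 ± 2.35, *Dpysl2* at 35.4 ± 4.76 and *Dpysl5* at 5.41 ± 0.360 CPM per kilobase (SD, n = 3) kept their places. The lengths matter here, because the annotated exons of *Crmp1* span 7046 bases over 10 transcripts while its longest transcript has 3051. With the longest transcript in place of all exons, *Crmp1* came to 98.8 and *Dpysl2* to 39.4 CPM per kilobase in WT mice, and *Dpysl3* (13.2 to 13.4) and *Dpysl4* (12.2 to 13.3) overlapped there. In the Ube3a m-/p+ group *Dpysl3* (9.30 to 9.50) remained below *Dpysl4* (12.4 to 14.6) on that scale too.

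**Figure D2:**
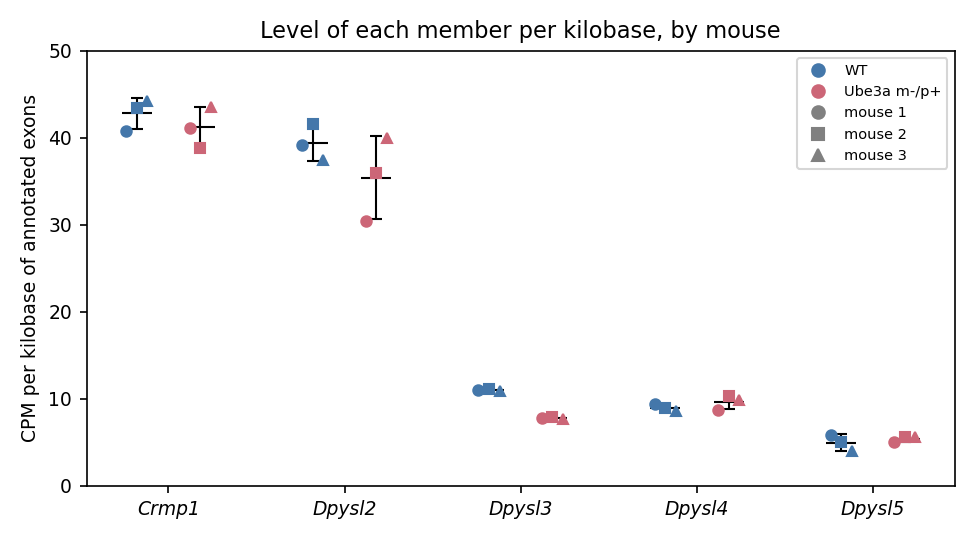
Level of each family member in CPM per kilobase of annotated exons in each mouse, on 1 linear axis from 0, with blue for WT and red for Ube3a m-/p+ mice, symbols for the mouse number and the mean and SD (n = 3) in black. *Crmp1* and *Dpysl2* lie at 30.4 to 44.2 and the other 3 at 3.98 to 11.1, with *Dpysl3* above *Dpysl4* in WT mice and below it in Ube3a m-/p+ mice.

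Within a library, the ratio of 2 genes does not depend on how the library was scaled. For every 100 counts of *Dpysl4* there were 131, 138 and 141 counts of *Dpysl3* in WT mice 1, 2 and 3, while Ube3a m-/p+ mice 1, 2 and 3 had 98.9, 84.9 and 86.0. Against 100 counts of *Crmp1* the values were 25.4, 24.0 and 23.2 in WT mice 1, 2 and 3, with 17.8, 19.0 and 16.6 for the Ube3a m-/p+ mice in the same order. Against *Dpysl2* they were 41.3, 39.2 and 42.7 (WT) against 37.5, 32.0 and 28.2 (Ube3a m-/p+), and against *Dpysl5* 169, 197 and 246 (WT) against 140, 126 and 122 (Ube3a m-/p+). The ratio was lower in every Ube3a m-/p+ mouse than in every WT mouse for each of the 4 relatives, with the narrowest gap for *Dpysl2*, where Ube3a m-/p+ mouse 1 came within 1.71 counts of WT mouse 2. These ratios share the counts of *Dpysl3*, which chose the family, and are given without a test.

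**Figure D3:**
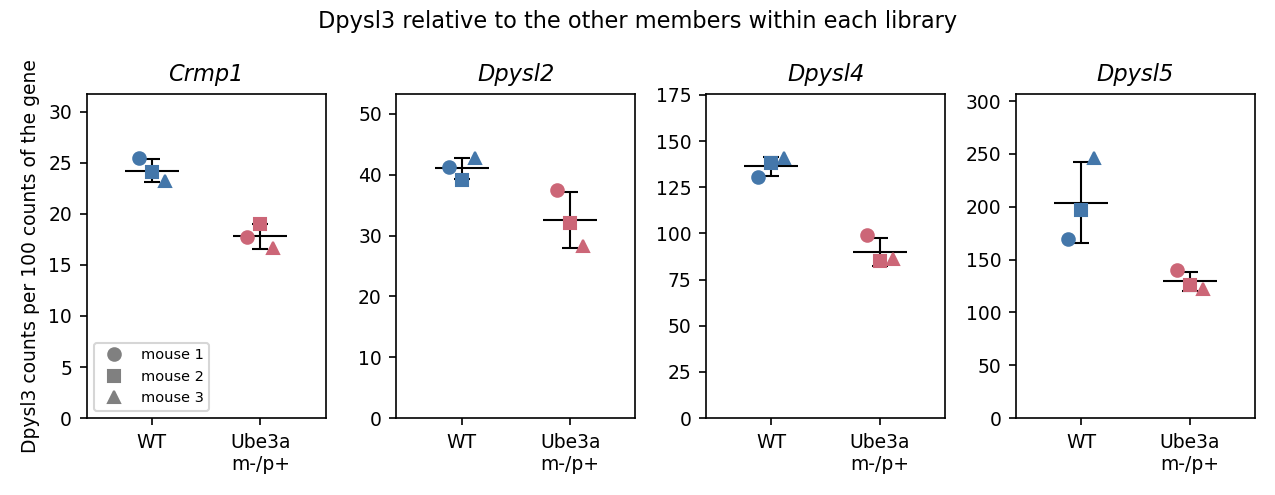
*Dpysl3* counts for every 100 counts of each other member within each library, with a panel and an axis from 0 for each member, symbols for the mouse number, and the mean and SD of each group (n = 3) in black. The mean against *Dpysl4* is 136 in WT mice and 89.9 in Ube3a m-/p+ mice, and in every panel the 3 Ube3a m-/p+ mice lie below the 3 WT mice.

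The share of *Dpysl3* in the summed level of the family, per kilobase, was 10.1% to 10.4% in WT mice and 7.23% to 8.37% in Ube3a m-/p+ mice. The share of *Dpysl4* was 8.09% to 8.81% (WT) and 9.28% to 10.4% (Ube3a m-/p+), again without overlap, and that of *Dpysl5* was 3.79% to 5.51% and 5.29% to 5.68%. *Crmp1* held 38.4% to 42.1% in WT mice and 39.4% to 44.2% in Ube3a m-/p+ mice, and *Dpysl2* 35.6% to 37.8% and 32.7% to 37.4%. As shares add up to the whole, a lower share of *Dpysl3* raises the others. The summed CPM of the 4 relatives was 563, 584 and 561 for WT mice 1, 2 and 3, while Ube3a m-/p+ mice 1, 2 and 3 had 517, 539 and 588. Here the groups overlapped and the highest sum belonged to Ube3a m-/p+ mouse 3.

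The members differ in base composition, which moved with genotype in mice 2 and 3. The GC content of the longest transcript was 56.6% in *Dpysl5*, 56.0% in *Crmp1*, 55.3% in *Dpysl4*, 50.1% in *Dpysl3* and 48.1% in *Dpysl2*, beside a median of 49.9% over 14327 tested genes. After each library was corrected for GC content and length, *Dpysl3* was at -0.47. The log2 fold change of *Dpysl4* turned from 0.12 to -0.01 and that of *Dpysl5* from 0.14 to 0.00, with adjusted p of 0.967 and 0.993 (edgeR). That of *Crmp1* went from -0.04 to -0.20 (95% interval -0.35 to -0.05, unadjusted p = 0.0123, adjusted p = 0.197, edgeR). That of *Dpysl2* was -0.08 (adjusted p = 0.803, edgeR). No relative was called with this correction, under which 0.656% of the tested genes were.

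Without the mice numbered 1, 2 mice were left in each group, and *Dpysl3* was at -0.48 again. *Dpysl5* then had a log2 fold change of 0.32 (95% interval 0.08 to 0.57, adjusted p = 0.0429, edgeR) and was called higher in Ube3a m-/p+ mice, as were 13.6% of all genes tested without these mice (28.3% were called in either direction). *Dpysl4* was at 0.22 (adjusted p = 0.0725, edgeR), *Crmp1* at -0.07 and *Dpysl2* at -0.04 (adjusted p = 0.516 and 0.719, edgeR). The call of *Dpysl5* was not made with all mice or with the correction for GC content, and the part of GC content in it cannot be told apart from genotype in these 4 libraries.

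**Figure D4:**
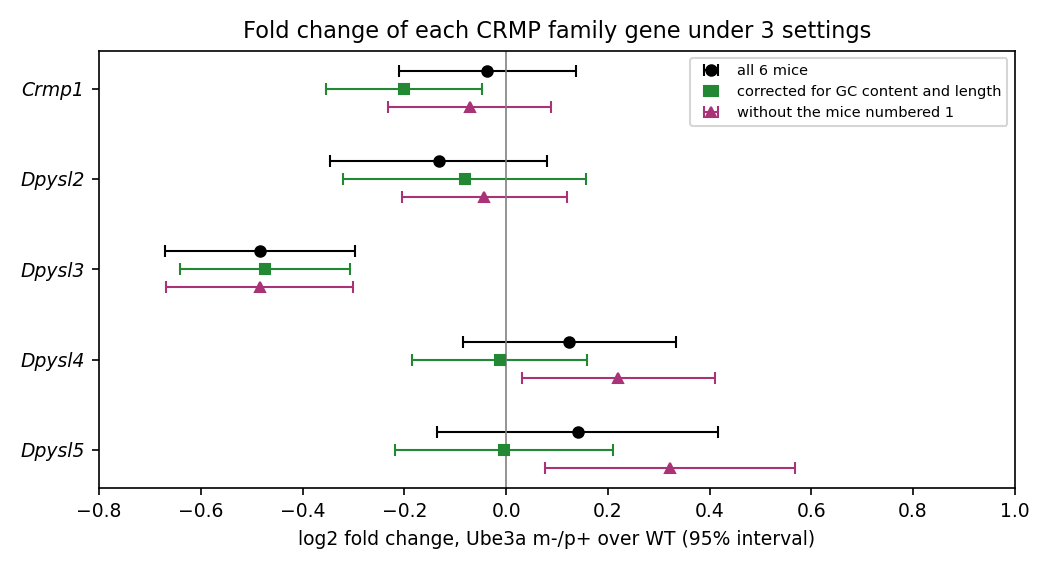
Log2 fold change of each family gene, Ube3a m-/p+ over WT, with its 95% interval, from all 6 mice (black circles), after the correction for GC content and length (green squares) and without the mice numbered 1 (purple triangles). *Dpysl3* is at -0.48 to -0.47 in the 3 settings, with intervals that overlap those of *Dpysl2* with all mice and of *Crmp1* and *Dpysl2* after the correction.

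Partners of CRMPs, growth cone and microtubule genes and enzymes of pyrimidine breakdown were examined as 5 lists, called the partner lists. They held 60 genes in all, of which 57 were tested. A single one was called, where 2.01% of all genes tested were. This was *Kif5b*, the heavy chain of the ubiquitous kinesin-1, a motor that CRMP2 links to its cargo. It stood at 292, 336 and 337 CPM in WT mice 1, 2 and 3 and at 261, 228 and 201 CPM in Ube3a m-/p+ mice 1, 2 and 3 (log2 fold change -0.47, standard error 0.10, adjusted p = 0.0362, edgeR). Unlike in *Dpysl3*, the mice numbered 1 lay between the other mice, and after the correction for GC content and length *Kif5b* was at -0.22 (adjusted p = 0.108, edgeR). It was not called without WT mouse 2 or 3 or Ube3a m-/p+ mouse 2 or 3 (log2 fold changes -0.45 to -0.38), settings in which 0 to 2 of all genes were called. With DESeq2 the lists gave 11 calls, where 9.96% of all genes with an adjusted p were called. They gave 17 calls without WT mouse 1, 13 without Ube3a m-/p+ mouse 1 and 25 without both, where 17.6%, 12.5% and 28.3% of all genes tested were called.

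Among the 15 genes listed for Sema3A, its receptors and the proteins that act with them, all tested, none was called. *Nrp1*, the receptor that binds Sema3A, had the lowest log2 fold change at -0.33 (adjusted p = 0.0531, edgeR) and *Rnd1*, a small GTPase that binds plexins, the highest at 0.51 (adjusted p = 0.164, edgeR). *Nrp1* was at 129, 131 and 140 CPM in WT mice and 113, 102 and 99.2 CPM in Ube3a m-/p+ mice, without overlap, and after the correction at -0.13 (adjusted p = 0.417, edgeR). The median of the list was 0.02. Without overlap, 2 of its genes were lower and 1 higher, where 14.2% of all genes tested were lower and 10.8% higher. At an unadjusted p below 0.05 there were 2 lower and 1 higher genes, where 24.6% of all genes tested passed in either direction.

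Of the 14 kinases, phosphatases and regulators that set CRMP phosphorylation, none was called, and 3 lower and 3 higher genes had an unadjusted p below 0.05, beside the 24.6% of all genes. *Rock1*, a kinase that acts on the actin cytoskeleton, was the lowest at -0.51 (adjusted p = 0.0534, edgeR) and after the correction at -0.23 (adjusted p = 0.280, edgeR). The median of the list was -0.03. Without overlap, 1 of its genes was lower and 2 higher, beside the 14.2% lower and 10.8% higher of all genes.

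The 15 cargo and binding partners tested had a median of -0.07, with *Kif5b* as the lowest and *Tubb3*, the neuronal beta-tubulin, as the highest at 0.34 (adjusted p = 0.0640, edgeR). *Sytl1* of this list had 40 counts in the 6 libraries and did not pass the filter. The 12 growth cone and microtubule genes had a median of 0.21, and none was called. In that list 3 lower and 7 higher genes had an unadjusted p below 0.05, beside the 24.6% of all genes. Without overlap were 2 lower and 6 higher genes of that list and 2 lower and 1 higher cargo and binding partners. Of all genes tested, 14.2% were lower and 10.8% higher without overlap. Neither these counts nor the medians were corrected for GC content. The log2 fold changes ran from -0.35 for *Map2*, a dendritic microtubule protein, to 0.32 for *Basp1*, a membrane protein of growth cones (adjusted p = 0.0685 and 0.0842, edgeR). After the correction *Tubb3* was at 0.10, *Basp1* at 0.12 and *Map2* at -0.27 (adjusted p = 0.544, 0.521 and 0.0895, edgeR).

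Of the pyrimidine breakdown enzymes, *Dpys*, whose sequence the CRMPs resemble, had 7 counts and *Upb1* 10 counts in the 6 libraries, too few to be tested. *Dpyd*, which catalyses the first step, was at 8.95, 11.5 and 8.78 CPM in WT mice and 7.10, 5.83 and 7.22 CPM in Ube3a m-/p+ mice. The groups did not overlap, where 14.2% of all genes tested were lower and 10.8% higher without overlap. The log2 fold change of *Dpyd* was -0.53 (adjusted p = 0.114, edgeR), and after the correction -0.39 (adjusted p = 0.359, edgeR). Without the mice numbered 1, the calls on the partner lists included *Nrp1* (-0.41), *Rock1* (-0.77), *Map2* (-0.54) and *Dpyd* (-0.63) as lower and *Tubb3* (0.49) and *Basp1* (0.46) as higher.

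**Figure D5:**
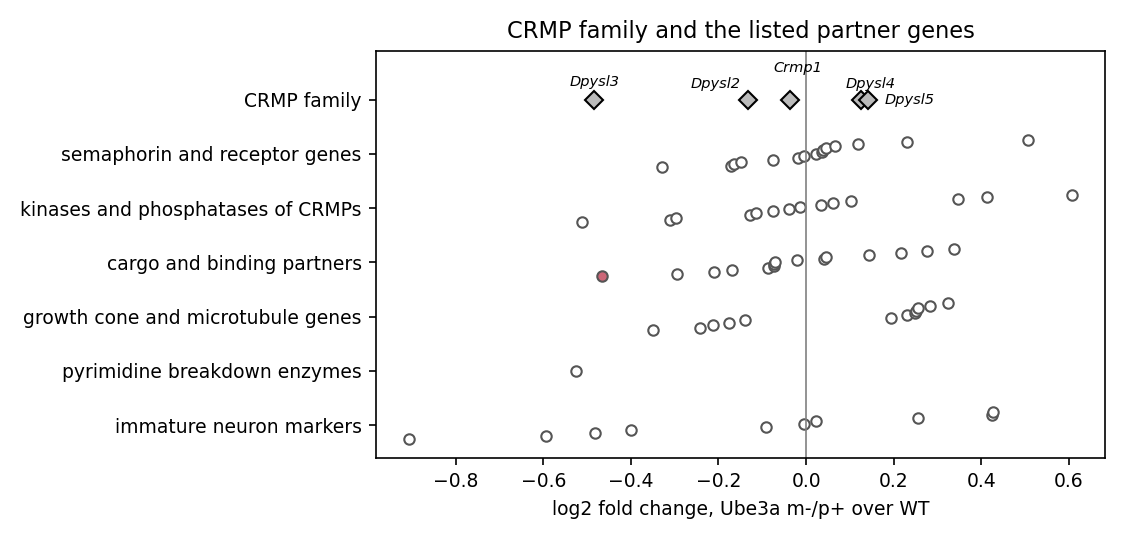
Log2 fold change, Ube3a m-/p+ over WT, of the 5 family genes (grey diamonds) and of every tested gene on the partner lists and among the immature neuron markers (circles, spread vertically for legibility), where a filled circle is a gene called. *Kif5b* at -0.47 is the filled circle, and *Dpysl3* lies at -0.48.

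Markers of the cells that could carry *Dpysl3* were set beside its fall. All 10 immature neuron markers were detected and tested, and none was called. By log2 fold change 6 of the 10 were below 0 and 4 above, with a median of -0.05, where 49.7% of all genes tested were below 0. At an unadjusted p below 0.05 there were 4 lower and 1 higher markers, beside the 24.6% of all genes. Between the groups, 3 lower and 1 higher markers did not overlap. The 3 lower markers without overlap, named after their values were seen, were *Sox11* (-0.59), *Neurod1* (-0.40) and *Nhlh1* (-0.91), transcription factors of differentiating neurons, and *Stmn1* was the higher one (0.25), with adjusted p of 0.0533, 0.0605, 0.135 and 0.113 (edgeR). After the correction these were at -0.46, -0.25, -1.05 and 0.12, none called. *Calb2* (0.43) and *Eomes* (0.42), also named after their values were seen, had the highest log2 fold changes of the list, with overlap. They were at 0.25 and 0.31 after the correction. *Nhlh1* and *Eomes* had few counts, 105 and 78 in the 6 libraries, and standard errors of 0.36 and 0.42 before the correction. Across all genes tested, 14.2% were lower and 10.8% higher without overlap. *Dcx*, the usual marker of newborn granule cells, was at 20.3, 27.4 and 26.9 CPM in WT mice and 20.6, 17.9 and 14.3 CPM in Ube3a m-/p+ mice, with overlap, and its log2 fold change went from -0.48 to -0.20 after the correction (adjusted p = 0.0807 and 0.481, edgeR). Without the mice numbered 1, *Dcx* (-0.74), *Sox11* (-0.77) and *Neurod1* (-0.46) were called lower and *Stmn1* (0.37) higher (adjusted p = 0.000700, 0.000792, 0.00595 and 0.00118, edgeR), where 28.3% of all genes were called. The summed level of the 10 markers was 287 to 289 CPM in WT mice and 277 to 293 CPM in Ube3a m-/p+ mice, of which *Stmn1* made up 41.7% to 49.8% and 52.5% to 55.8%. Without *Stmn1*, left out after its values were seen, the other 9 summed to 145 to 167 CPM in WT mice and 130 to 135 CPM in Ube3a m-/p+ mice, without overlap. This separation rests on that choice, as the sums of all 10 overlapped, and no sum was corrected for GC content. The 8 oligodendrocyte precursor markers summed to 586 to 633 and 585 to 616 CPM, with *Pdgfra* called lower (-0.43). The 8 interneuron markers summed to 698 to 724 CPM in WT mice and 622 to 663 CPM in Ube3a m-/p+ mice, without overlap and with no call. In both lists 4 markers had a log2 fold change below 0 and 4 above, with medians of -0.01 and -0.09. The part of these cells in the fall of *Dpysl3* was not tested.

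The other cell types gave 1 call in 37 marker genes, all of them tested, where 2.01% of all genes tested were called. Astrocyte markers summed to 4505 to 5029 CPM in WT mice and 3912 to 4237 CPM in Ube3a m-/p+ mice, microglia markers to 255 to 266 and 242 to 244 CPM, and myelin markers to 8185 to 8298 and 6841 to 7800 CPM, each without overlap. Log2 fold changes were below 0 in 4 of 6 astrocyte, 3 of 6 microglia and 4 of 7 myelin markers. The sums were not corrected for GC content. Endothelial markers summed to 186 to 199 and 176 to 193 CPM, and meninges and fibroblast markers to 92.7 to 152 and 94.8 to 177 CPM, with overlap. The call was *Col1a1*, a collagen of meninges and fibroblasts, which was higher in Ube3a m-/p+ mice (0.73) but not called after the correction (0.55, adjusted p = 0.0736, edgeR). Neither *Col1a1* (0.61 to 0.79) nor *Pdgfra* (-0.52 to -0.34) was called without WT mouse 2 or 3 or Ube3a m-/p+ mouse 2 or 3, where 0 to 2 of all genes were called. No marker on these lists was at 0, and their part in the fall of *Dpysl3* was not tested.

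The genes whose log2 CPM followed each member most closely over the 6 mice, among 10421 other genes at a mean of at least 10 CPM, were also listed. They were *Zbtb11*, *Gpatch2l* and *Mtx3* for *Dpysl3*, with a Pearson's r of 0.998, 0.995 and 0.992. Their log2 fold changes were -0.23, -0.27 and -0.31 (adjusted p = 0.127, 0.111 and 0.0627, edgeR), a direction that the choice of genes most like *Dpysl3* fixes. After the correction they were at -0.05, -0.27 and -0.08. For *Dpysl2* they were *Fancg*, *Thrsp* and *Abcb8* (0.992, 0.979 and 0.972), for *Crmp1* *Klhl23*, *Ehd2* and *Clgn* (0.983, 0.980 and 0.974), for *Dpysl4* *Ap5s1*, *Evi5l* and *Chchd4* (0.997, 0.994 and 0.994), and for *Dpysl5* *Fam193b*, *Mef2d* and *Smpd3* (0.995, 0.995 and 0.994). No family member was among the 3 closest genes of another. An r of at least 0.9 was reached by 252 genes for *Dpysl3*, 526 for *Dpysl4*, 316 for *Dpysl5*, 38 for *Crmp1* and 24 for *Dpysl2*, so that with 6 mice such values are common, and all of them share the same libraries.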

How the data were processed

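Hippocampal RNA of 3 WT and 3 Ube3a m-/p+ mice was analysed from the raw counts per gene symbol that the authors deposited, 1 library per mouse. The submitters' processing notes name STAR 2.7.4a, HTSeq and mm10, while annotation and strand setting are not given in the sources used here. The summary lines of the counting, among them reads on no gene (54.1% to 55.0% of the reads listed), stayed out of library sizes and tests. CPM were taken on total gene counts (7293272 to 11314409).

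Genes kept by filterByExpr entered edgeR's quasi-likelihood test after TMM scaling (edgeR 4.0.16, R 4.3.3), two-sided, with genotype as the only factor and Benjamini-Hochberg adjustment over 14445 genes. A call needed a fold change over 1.2 with an adjusted p under 0.05. Alternatives included DESeq2 1.42.0, other scalings and filters, a replicate block, and a correction of each library by natural splines (5 degrees of freedom each) on the length and GC content of a gene's longest transcript in GENCODE M21. On simulated counts for this comparison, the edgeR step recovered 91% of 200 genes changed 2-fold, with 10 false calls among 14434 genes. The simulation had the same dispersion for all genes, no GC gradient and no change smaller than 2-fold. These rates therefore check the code and do not carry over to the real libraries or to smaller changes.

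The named genes were the members, *Ube3a*, the called, lowest and highest genes of each partner list, and the 3 closest genes of each member, and 1 gene under this rule is not reported here. The markers named (*Sox11*, *Neurod1*, *Nhlh1*, *Stmn1*, *Calb2*, *Eomes*, *Dcx*, *Pdgfra* and *Col1a1*), *Dpys*, *Upb1*, *Sytl1* and *Snhg14* fall outside it and were chosen after their values were seen. Members and lists were chosen with earlier results of these data known. Coding sequences were aligned with MAFFT 7.526, and sequences are those of GENCODE M21.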

Additional observations from a re-analysis of the deposited data

How the results depend on the processing

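*Dpysl3* had a log2 fold change between -0.50 and -0.47 in every setting run, and the direction of *Dpysl2* also held in all of them. The value of *Dpysl3* was -0.48 with the replicate number as a block and -0.50 to -0.47 with 1 mouse left out. *Ube3a* was at -0.57 with the block, at -0.20 with GC content and length corrected and at -0.19 with both, none past the threshold, and at -0.73 to -0.48 with 1 mouse left out. *Crmp1* turned to 0.01 without Ube3a m-/p+ mouse 2 (0.0146, range with 1 mouse left out -0.0856 to 0.0146). *Dpysl4* turned to -0.0127 with the correction and to -0.0150 with correction and block (adjusted p = 0.967 and 0.971, edgeR). *Dpysl5* turned to 0.00 (-0.0043) with the correction and rose to 0.32 without the mice numbered 1. The replicate block, under which 0 of all genes were called, could give no call to the 4 relatives. The calls of *Kif5b*, *Pdgfra* and *Col1a1* were lost with the block, those of *Kif5b* and *Col1a1* also with the correction and that of *Pdgfra* with upper-quartile factors, and no other gene named with a test changed direction in the settings run.

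The number of called genes (290) was 953 with DESeq2, 1176 with no filter, 0 with the replicate block (by edgeR, with 2422 at an unadjusted p below 0.05), 94 with the correction, 17 with both, 4138 without the mice numbered 1, 2832 at an unadjusted p, and 0 (without WT mouse 2 or 3 or Ube3a m-/p+ mouse 2) to 2582 (without WT mouse 1) with 1 mouse left out. On the partner lists, 11 genes were called with DESeq2, 8 with no filter, 0 with the block, the correction or both, 25 without the mice numbered 1 and 0 to 17 with 1 mouse left out. The causes were not tested. Deviations of same-numbered mice from their group means correlated at -0.28, -0.18 and -0.31. The GC gradient ran in opposite directions in the 2 groups and can by itself give negative values. These correlations therefore cannot show whether the numbers mark pairs. The sample titles do not state it, and the main fit took the numbers as no pairs. The mean share of the family level over 6 mice was 47.7% (*Crmp1*), 27.2% (*Dpysl2*), 9.98% (*Dpysl3*) and 6.18% (*Dpysl5*) by CPM in place of kilobases, and 58.3% (*Crmp1*), 22.4% (*Dpysl2*), 6.81% (*Dpysl3*) and 7.98% (*Dpysl4*) by the longest transcript, an alternative chosen after seeing the data.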
